A study of Mus musculus with 2 samples.

Results

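Dual specificity MAP kinase phosphatases are enzymes that switch off the MAP kinases ERK, p38 and JNK by removing phosphate from a threonine and a tyrosine of the activation loop. 9 genes of the family were taken by symbol (Dusp1, Dusp2, Dusp3, Dusp4, Dusp5, Dusp6, Dusp7, Dusp10 and Dusp16) out of 55536 annotated genes. They were placed in 4 classes by what is known of their proteins: nuclear inducible enzymes (Dusp1, Dusp2, Dusp4 and Dusp5), cytoplasmic enzymes that prefer ERK (Dusp6 and Dusp7), enzymes that prefer p38 and JNK (Dusp10 and Dusp16), and the small atypical enzyme Dusp3. The RNA came from a nuclear fraction (a description field of the labels has nucleoplasmic, other fields nucleus) of bone marrow derived macrophages of C57BL/6J mice given 100 ng/ml Lipid A for 10 min, and total RNA was sequenced after ribosomal RNA depletion. Age and sex were not collected, per the labels. Lipid A is the part of bacterial lipopolysaccharide that Toll-like receptor 4 recognises. There was 1 group of 2 libraries. Replicate 1 was made from 1 µg of RNA and held 19153465 expected counts, and replicate 2 was made from 500 ng and held 11622346. No untreated cells, other times or other fractions were analysed here, so every value below is a level at 10 min and none is a change with Lipid A. The labels do not say that the replicates came from separate animals (both carry the same donor identifier), so the spread between them may be partly technical.

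In macrophages, Toll-like receptor 4 signals through kinase cascades to all 3 branches of the MAP kinases, and the phosphatases end those signals. Most nuclear enzymes of the family are encoded by short genes that respond within minutes to the kinases their products shut off, which closes a negative feedback loop. Dusp1 is the member best known in this cell type: it dephosphorylates p38 and JNK and limits the output of inflammatory genes. Dusp6 holds ERK in the cytoplasm and inactivates it there, while Dusp10 and Dusp16 act mainly on the stress kinases.

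The cells carried the markers of their label. All 7 macrophage markers (Adgre1, Csf1r, Cd68, Itgam, Mertk, Fcgr1 and Lyz2) reached at least 1 TPM (a level corrected for transcript length and scaled to a fixed total per library) in both libraries, with values between 24.9 and 2309 TPM. None of the 3 T cell, 3 B cell, 3 fibroblast or 3 endothelial markers did. Of the neutrophil markers S100a8 alone did, at 1.53 and 1.75 TPM in replicates 1 and 2. These values are from the gene tables' quantification. In the second deposited quantification the T cell marker Cd3d had 2.53 and 10.1 TPM. The endothelial marker Pecam1 had 2.45 and 7.18 TPM there, and S100a8 had 0.673 and 1.03 TPM.

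The sequences behind the main results come first. Dusp1 and Dusp2, the pair of members with RNA on annotated retained intron transcripts in the gene tables' quantification, are shown at the ends of those introns. Each line has 20 bases of exon and 40 bases of intron in mm10, read 5′ to 3′ on the gene's strand from GENCODE M21 transcripts, with the GT that opens or the AG that closes the intron in capitals. Intron 2 of Dusp1 lies at chr17:26507205-26507573 on the minus strand (369 bases) and intron 3 at chr17:26506651-26506984 (334 bases). Intron 2 of Dusp2 lies at chr2:127336899-127337248 on the plus strand (350 bases). All 3 lie within the span of the coding region, and all 3 carry the usual GT and AG.
Dusp1 intron 2, start: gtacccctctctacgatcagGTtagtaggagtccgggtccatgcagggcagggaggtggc
Dusp1 intron 2, end: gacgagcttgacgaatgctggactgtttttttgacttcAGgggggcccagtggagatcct
Dusp1 intron 3, start: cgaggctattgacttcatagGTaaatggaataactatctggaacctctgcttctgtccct
Dusp1 intron 3, end: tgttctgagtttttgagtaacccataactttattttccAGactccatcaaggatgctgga
Dusp2 intron 2, start: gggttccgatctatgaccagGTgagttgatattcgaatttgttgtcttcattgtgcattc
Dusp2 intron 2, end: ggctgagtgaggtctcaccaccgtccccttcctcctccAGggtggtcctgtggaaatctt

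Promoters are shown for Dusp1, Dusp2, Dusp5 and Dusp6, the 4 members that stood more than 2-fold apart between the libraries (values below). The sequences are RefSeq windows of GRCm38.p6 from 250 bases before to 50 bases after the annotated start, and 8 of the 9 members had a window in the table used. Capitals mark the cyclic AMP response element TGACGTCA, its core TGACG, the E-box CACGTG and, in Dusp5, the CArG box, the site named for serum response factor. All motifs were searched on both strands. Each TGACGTCA also holds the core on both strands, so those matches overlap.
Dusp1, chr17:26508423-26508722, minus strand: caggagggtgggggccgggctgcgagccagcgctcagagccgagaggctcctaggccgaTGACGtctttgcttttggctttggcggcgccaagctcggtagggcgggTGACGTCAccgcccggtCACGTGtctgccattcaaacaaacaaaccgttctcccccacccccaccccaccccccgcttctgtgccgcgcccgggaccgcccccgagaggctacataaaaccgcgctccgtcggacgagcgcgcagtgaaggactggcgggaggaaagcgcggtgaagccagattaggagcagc
Dusp2, chr2:127335909-127336208, plus strand: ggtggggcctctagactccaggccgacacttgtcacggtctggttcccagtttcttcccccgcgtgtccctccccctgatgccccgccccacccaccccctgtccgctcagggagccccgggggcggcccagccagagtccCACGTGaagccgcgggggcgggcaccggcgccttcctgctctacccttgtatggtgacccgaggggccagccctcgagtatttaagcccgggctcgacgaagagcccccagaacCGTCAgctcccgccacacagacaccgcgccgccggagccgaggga
Dusp5, chr19:53528895-53529194, plus strand: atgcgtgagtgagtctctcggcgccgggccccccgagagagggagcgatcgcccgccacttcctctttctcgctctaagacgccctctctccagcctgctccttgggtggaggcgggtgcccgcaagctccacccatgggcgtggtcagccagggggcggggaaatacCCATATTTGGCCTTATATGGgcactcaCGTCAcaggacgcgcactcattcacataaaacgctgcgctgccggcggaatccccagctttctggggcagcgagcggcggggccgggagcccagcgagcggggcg
Dusp6, chr10:99262981-99263280, plus strand: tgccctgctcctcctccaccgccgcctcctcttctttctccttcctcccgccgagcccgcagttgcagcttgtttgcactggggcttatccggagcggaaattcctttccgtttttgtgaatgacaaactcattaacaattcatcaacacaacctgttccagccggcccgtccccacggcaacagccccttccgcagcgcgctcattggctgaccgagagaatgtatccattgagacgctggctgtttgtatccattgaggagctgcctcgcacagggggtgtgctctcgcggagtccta

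The Dusp1 window held TGACGTCA with its first base at position -143 from the start, a separate core at -191 and an E-box at -126. Dusp1 was the single member of 8 with TGACGTCA, which 1.79% of 32851 promoters in the table held. The core TGACG was in 4 of the 8 windows (Dusp1, Dusp2, Dusp5 and Dusp16), against 20.8% of all promoters, and the E-box in 2 (Dusp1 and Dusp2), against 7.15%. Dusp5 had a pair of CArG boxes directly beside each other, at -82 and -72. No other member window held that motif, and 1.63% of all promoters did. The AP-1 letters TGANTCA were in none of the 8 windows and in 7.81% of all promoters, and the GC box GGGCGG was in 7 of 8 windows and in 35.7% of all. Dusp6 had none of these motifs in its window. A match describes the letters and shows no binding.

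Dusp1 (ENSMUSG00000024190.7, chr17:26505590-26562128, minus strand) had the highest mean level of the members. Replicate 1 had 79.2 TPM (2548 expected counts) of its RNA and replicate 2 had 37.0 TPM (720 counts), a mean of 58.1 ± 29.8 TPM (SD, n = 2). It ranked 744th by mean level among the 10123 protein-coding genes that reached 1 TPM in both libraries. Replicate 1 lay well above replicate 2, and the 95% counting intervals, 76.2 to 82.4 and 34.4 to 39.8 TPM, did not overlap. In the second deposited quantification Dusp1 stood lower, at 34.6 and 24.8 TPM. That was not particular to Dusp1, since the macrophage markers also had lower mean levels there, while Dusp7 had a higher one. Because these are bulk libraries, more cells with the RNA and more RNA per cell cannot be told apart here.

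Dusp2 (ENSMUSG00000027368.6, chr2:127336159-127338376, plus strand), a nuclear phosphatase found mostly in blood and immune cells, had 34.9 TPM in replicate 1 (719 counts) but 8.21 TPM in replicate 2 (116 counts), a mean of 21.6 ± 18.9 TPM (SD, n = 2). No other member differed by as large a fold between the libraries. Dusp4 (ENSMUSG00000031530.6, chr8:34807297-34819894, plus strand), a nuclear relative of Dusp1, had 4.92 and 2.35 TPM (278 and 86 counts). Dusp5 (ENSMUSG00000034765.6, chr19:53529109-53542431, plus strand), which binds and inactivates ERK in the nucleus, had 3.53 and 1.29 TPM (178 and 42 counts). All 4 nuclear inducible members were thus higher in replicate 1, and their levels spanned an order of magnitude, with Dusp1 and Dusp2 far above Dusp4 and Dusp5 in both libraries.

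The cytoplasmic ERK phosphatases had intermediate levels, and Dusp7 was above Dusp2 in replicate 2. Dusp6 (ENSMUSG00000019960.8, chr10:99263231-99267489, plus strand), the best studied feedback inhibitor of ERK in the family, had 8.0 TPM in replicate 1 (360 counts) and 2.80 TPM in replicate 2 (94 counts), a mean of 5.40 ± 3.68 TPM (SD, n = 2). Dusp7 (ENSMUSG00000053716.9, chr9:106368632-106375724, plus strand), its close relative, had 12.0 and 9.16 TPM (743 and 321 counts), a mean of 10.6 ± 1.99 TPM (SD, n = 2). Dusp7 was above Dusp6 in both libraries and their ranges did not overlap. In the second quantification Dusp7 was at 16.4 and 19.0 TPM, a quantification in which the median gene's log2 difference, replicate 1 minus replicate 2, was -0.37. After that shift was removed, Dusp7 remained higher in replicate 1 by a log2 difference of 0.18.

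The p38 and JNK phosphatases were the lowest class. Dusp16 (ENSMUSG00000030203.17, chr6:134715468-134792625, minus strand), which shuttles between nucleus and cytoplasm, had 3.67 and 4.44 TPM (327 and 206 counts), a mean of 4.06 ± 0.544 TPM (SD, n = 2). Dusp10 (ENSMUSG00000039384.8, chr1:184013302-184075636, plus strand), a selective phosphatase of p38 and JNK, had 0.50 and 0.51 TPM on 29 and 19 counts. With so few counts, its 95% counting intervals ran from 0.335 to 0.718 TPM and from 0.307 to 0.796 TPM, and a difference between the libraries was not detectable at this depth. Dusp10 was the single member under 1 TPM, and 8 of 9 members reached 1 TPM in both libraries, against 46.0% of 22028 protein-coding genes.

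Dusp3 (ENSMUSG00000003518.13, chr11:101971143-101987013, minus strand), which has the catalytic domain but lacks the kinase-binding domain of the classical members and acts on ERK and JNK, had 35.9 and 32.1 TPM (2732 and 1636 counts). Its mean of 34.0 ± 2.73 TPM (SD, n = 2) was the second highest of the 9 and far steadier than that of Dusp1 or Dusp2.

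**Figure D1:**
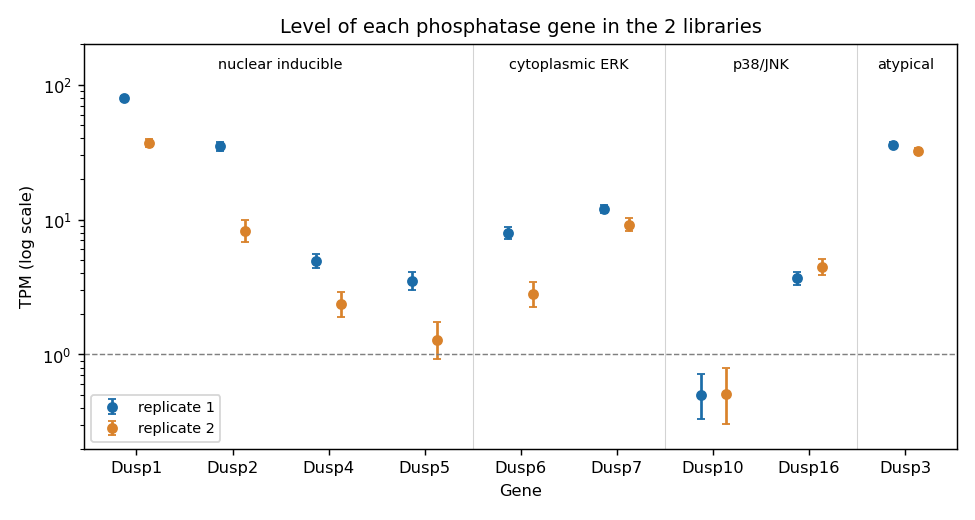
Level in TPM (log axis) of the 9 genes in replicate 1 and replicate 2, by class, with bars for the 95% counting interval of each library and a dashed line at 1 TPM. Dusp1 at 79.2 and 37.0 TPM is the highest, Dusp10 at 0.50 and 0.51 TPM is the lowest, and the nuclear inducible genes and Dusp6 are visibly higher in replicate 1.

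By mean level the order was Dusp1, Dusp3, Dusp2, Dusp7, Dusp6, Dusp16, Dusp4, Dusp5 and Dusp10. Among neighbours in this order, the ranges over the libraries did not overlap for Dusp1 and Dusp3 (lowest Dusp1 value 37.0 TPM, highest Dusp3 value 35.9 TPM), for Dusp7 and Dusp6, and for Dusp5 and Dusp10. The other 5 neighbouring pairs overlapped, and for 3 of them (Dusp2 and Dusp7, Dusp6 and Dusp16, Dusp16 and Dusp4) the order differed between the libraries. The first place of Dusp1 depended on the quantification: in the second quantification Dusp3 was at 28.3 TPM in replicate 2, above Dusp1 at 24.8 TPM, while in replicate 1 Dusp1 was at 34.6 TPM and Dusp3 at 21.2 TPM.

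Summed by class, the nuclear inducible genes had 123 TPM in replicate 1 and 48.9 TPM in replicate 2, or 67.1% and 49.9% of the summed level of the 9 genes. The cytoplasmic ERK pair had 20.0 and 12.0 TPM (10.9% and 12.2%), and the p38 and JNK pair had 4.17 and 4.95 TPM (2.28% and 5.06%). Dusp3 made up the other 19.7% and 32.8%. The nuclear inducible sum was thus 6.13 times the cytoplasmic ERK sum in replicate 1 and 4.09 times in replicate 2, a log2 ratio of 2.32 ± 0.41 (SD, n = 2). The first sum has 4 genes and the second has 2, and the ratio of the means per gene was 3.07 in replicate 1 and 2.04 in replicate 2. The ratio of the sums rested on Dusp1 and on which transcripts were summed. Without Dusp1 the mean log2 ratio was 0.55, and over transcripts annotated as protein-coding it was 0.69 ± 0.51 (SD, n = 2), with sums 2.07 times apart in replicate 1 and 1.25 times apart in replicate 2. Per gene, the coding ratio was 1.03 in replicate 1 and 0.625 in replicate 2, so the direction then turned in replicate 2. The second quantification gave a log2 ratio of 1.02, and expected counts not divided by length gave 1.49.

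Most of the Dusp1 RNA was assigned to transcripts that are not coding. A retained intron transcript is an annotated model, with no coding sequence, in which an intron remains between exons. Such models held 85.8% of the Dusp1 TPM in replicate 1 and 88.8% in replicate 2, a mean of 87.3% ± 2.12 (SD, n = 2). The share was also high by expected counts, 82.5% and 87.9%, and in the second quantification, 84.2% and 91.2%. Dusp1-203, which keeps intron 2 of the coding transcript Dusp1-202 and has introns 1 and 3 spliced, had 35.2 and 15.7 TPM in replicates 1 and 2. Dusp1-204, a shorter model that keeps intron 3 and has intron 2 spliced, had 32.8 and 17.1 TPM. The protein-coding transcripts together had 11.3 and 4.15 TPM, and the libraries differed in which of them took the reads. Dusp1-202 had 11.3 TPM in replicate 1 and 0.82 TPM in replicate 2. Dusp1-206, a coding model with a shorter first exon and much the same remaining exons, had 0 and 3.33 TPM. The second quantification did not show that switch: there Dusp1-202 had 5.03 and 1.84 TPM and Dusp1-206 had 0 TPM in both libraries. These models share most of their exons, so the division between them is an estimate and is uncertain. Unspliced precursor RNA and a finished RNA that keeps the intron cannot be told apart in these tables.

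Dusp2 showed the same kind of division to a lesser degree. Its retained intron transcript Dusp2-202, which keeps intron 2, had 19.2 and 4.08 TPM, and its coding transcript Dusp2-201 had 15.7 and 4.14 TPM. The retained share was 55.0% in replicate 1 and 49.6% in replicate 2 (52.3% ± 3.80, SD, n = 2). By expected counts it was 31.7% and 27.6%, since the retained model is the shorter. Over 6327 detected protein-coding genes that have an annotated retained intron transcript, the median share of TPM on such transcripts was 32.5%. Of these genes, 1.01% had a higher share than Dusp1 and 19.1% a higher share than Dusp2. Of the other members, Dusp16 has a retained intron model, listed at 0 TPM in the gene tables' quantification and holding 7.63% and 4.65% of the gene in the second, and Dusp3, Dusp4, Dusp5, Dusp6, Dusp7 and Dusp10 have none in the annotation.

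**Figure D2:**
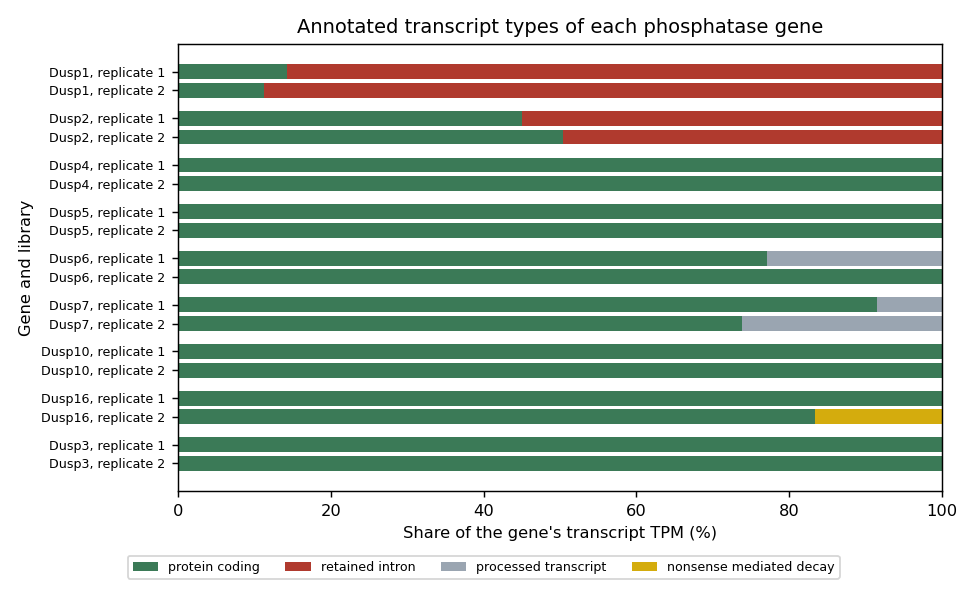
Share of each gene's transcript TPM (%) by annotated transcript type, with replicate 1 above replicate 2 for each gene. Retained intron transcripts hold 85.8% and 88.8% of Dusp1 and 55.0% and 49.6% of Dusp2, and none of the other 7 genes in the gene tables' quantification.

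**Figure D3:**
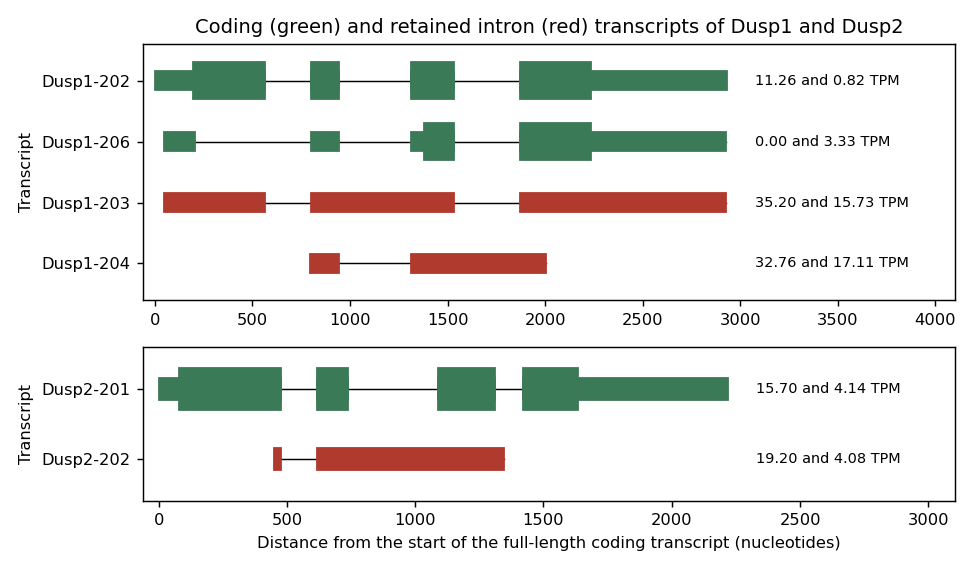
Exons (boxes, taller where coding) and introns (lines) of the Dusp1 and Dusp2 transcripts that hold RNA in the gene tables' quantification, by distance in nucleotides from the start of Dusp1-202 or Dusp2-201, with the TPM of replicate 1 and then replicate 2 at the right. Dusp1-203 and Dusp1-204 keep different introns and have 35.20 and 15.73 TPM and 32.76 and 17.11 TPM, against 11.26 and 0.82 TPM for Dusp1-202.

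With coding transcripts alone, the order of the members changed. Dusp3 came first at 35.9 and 32.1 TPM, and the coding sum of the 4 nuclear inducible genes came to 35.4 TPM in replicate 1 but 11.9 TPM in replicate 2, against 17.1 and 9.54 TPM for Dusp6 and Dusp7. Dusp4, Dusp5 and Dusp10 had all of their TPM on a single coding transcript each (Dusp4-201, Dusp5-201 and Dusp10-201). Dusp6 was divided between Dusp6-201 (4.34 and 1.14 TPM), Dusp6-204 (1.82 and 1.65 TPM) and the noncoding Dusp6-202 (1.83 and 0 TPM). Dusp7-201 held 89.9% and 73.8% of Dusp7 and the noncoding Dusp7-204 held 8.51% and 26.2%. A further noncoding model, Dusp7-202, was listed at 0 TPM in both libraries in the gene tables' quantification but at 11.2 and 12.4 TPM in the second, where coding transcripts held 32% and 30.9% of Dusp7. Dusp16 was spread over Dusp16-204 (1.39 and 1.46 TPM), Dusp16-201 (1.5 and 0.88 TPM) and Dusp16-202 (0.78 and 1.36 TPM).

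Dusp3 had a steady sum but an unsteady split. Dusp3-206 held 39.0% in replicate 1 and 82.6% in replicate 2, and Dusp3-201 held 46.5% and 7.80%. Each has 3 exons, of which they share 2 (4024 bases in all). They differ in the first exon, which is 60 bases long in Dusp3-206 (chr11:101983444-101983503) and 188 bases long in Dusp3-201 (chr11:101984612-101984799). In the second quantification the split moved the same way, though the shares differed: Dusp3-206 held 47.2% and 67.3%, and Dusp3-201 held 19.1% and 0.975%. A further coding transcript, Dusp3-207, held more than Dusp3-201 there, at 24.0% and 25.5%. In the gene tables' quantification Dusp3-207 held 0.668% and 2.37%. Reads that can tell Dusp3-206 and Dusp3-201 apart were not counted, so the size of the change between libraries is uncertain.

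The libraries differed more for some classes than for others. On expected counts scaled by TMM, Dusp1 was 2.11-fold higher in replicate 1 than in replicate 2 (95% counting interval 1.94 to 2.30), Dusp2 3.68-fold (3.04 to 4.54), Dusp5 2.50-fold (1.80 to 3.63) and Dusp6 2.28-fold (1.82 to 2.90). The interval of Dusp2 alone lay wholly above 2. Dusp4 was 1.92-fold higher (1.51 to 2.49) and Dusp7 1.38-fold higher (1.21 to 1.58). The ratio of replicate 1 to replicate 2 was 0.948 for Dusp16 (0.793 to 1.13), 0.997 for Dusp3 (0.937 to 1.06) and 0.914 for Dusp10 (0.494 to 1.72), and all 3 intervals held 1.

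Of the 8 members with a mean of at least 50 counts, 4 were thus more than 2-fold higher in replicate 1 and 0 more than 2-fold lower. Among all 11656 genes with that many counts, 1.65% were more than 2-fold higher in replicate 1 and 0.446% more than 2-fold lower. With 1 library on each side there is no test of this difference, and the intervals cover counting error only. On TPM with a pseudocount of 1, after subtracting the shift of 0.10 (log2) of the median gene, 2 members (Dusp2 and Dusp6) were past 2-fold, and Dusp1 lay just inside at a log2 difference of 0.98. The median log2 difference by class on that scale was 0.93 for the nuclear inducible genes, 0.70 for the cytoplasmic ERK pair, -0.22 for the p38 and JNK pair and 0.06 for Dusp3. Most macrophage markers were higher in replicate 1 as well. Together the 7 markers reached 3493 TPM in replicate 1, against 2166 TPM in replicate 2. The largest part of that gap was Lyz2, at 2309 and 1215 TPM, while Mertk was lower in replicate 1, at 93.5 and 105 TPM. On TPM centred on the median gene, 5 of 7 markers were higher in replicate 1. On TMM-scaled counts 0 were past 2-fold. The RNA input differed too. The part of either in the phosphatase differences was not tested.

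**Figure D4:**
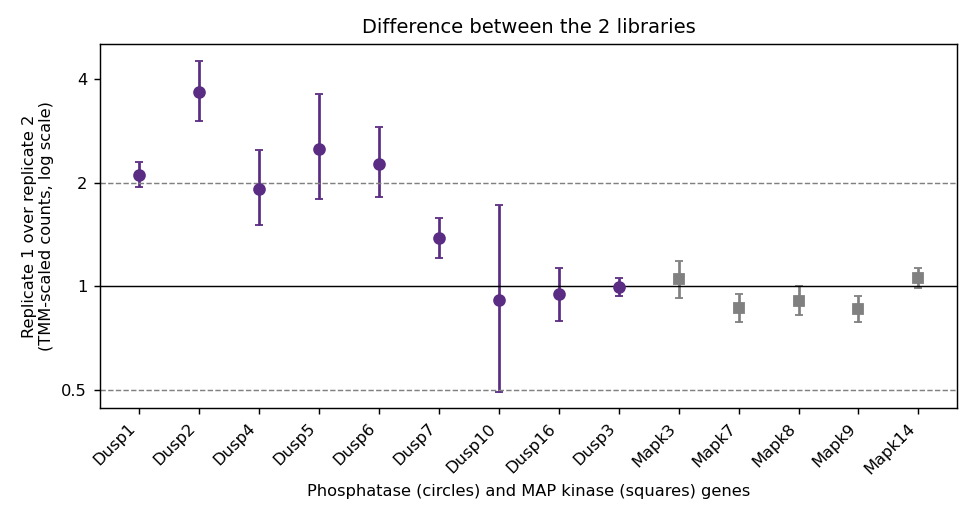
Ratio of replicate 1 to replicate 2 on TMM-scaled counts (log axis) for the 9 phosphatase genes (circles) and 5 MAP kinase genes with a mean of at least 50 counts (squares), with 95% counting intervals and dashed lines at 2-fold in either direction. Dusp1, Dusp2, Dusp5 and Dusp6 lie above 2, and Dusp10, Dusp16, Dusp3 and all 5 kinases lie near 1.

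The kinases that these enzymes act on were closer between the libraries than Dusp1, Dusp2, Dusp5 and Dusp6. Of 9 MAP kinase genes considered, 5 reached 1 TPM in both libraries and 0 of those 5 were more than 2-fold apart. Their log2 ratios of replicate 1 to replicate 2 lay between -0.22 and 0.08. Among all 11656 genes with enough counts, 1.65% were more than 2-fold higher and 0.446% more than 2-fold lower. A count of 0 of 5 is thus near the share over all genes. Mapk14, which encodes p38 alpha, had 40.2 and 35.2 TPM. Mapk3, which encodes an ERK, had 25.2 and 21 TPM, and Mapk9, a JNK, had 20.9 and 18.6 TPM. The lowest were Mapk10, the JNK of neurons, at 0.11 and 0.16 TPM, and Mapk13, p38 delta, at 0.11 TPM (1 count) and 0 TPM (0 counts). In TPM over all transcripts, Dusp1 was above each of these 9 kinase genes in replicate 1 and close to Mapk14 in replicate 2. Its coding transcripts alone had 11.3 and 4.15 TPM, below the whole-gene levels of the 5 detected kinases (14.1 TPM at the lowest). Dusp7, Dusp6, Dusp16, Dusp4, Dusp5 and Dusp10 were below the 5 detected kinases in both libraries. The second quantification placed some members otherwise. There Dusp7, at 16.4 and 19.0 TPM, was above each of the 5 detected kinases except Mapk14, at 30.7 and 35.6 TPM. The highest of the others was Mapk3, at 14.3 and 15.9 TPM. The noncoding Dusp7-202 held 68.0% and 65.5% of that Dusp7 level. Dusp1, at 24.8 TPM in replicate 2, was below Mapk14, at 35.6 TPM.

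The remaining classical MAP kinase phosphatases were low. Dusp8, a JNK and p38 phosphatase, had 0.61 and 0.47 TPM (58 and 31 counts), and Dusp9, a cytoplasmic ERK phosphatase, had 0.02 and 0.08 TPM (1 and 3 counts). Of 16 other dual specificity phosphatases, 10 reached 1 TPM in both libraries. Of the 9 with enough counts, 0 were more than 2-fold apart. That is near the share over all 11656 genes (1.65% higher and 0.446% lower in replicate 1). The highest were Ssh3, a slingshot phosphatase of the actin regulator cofilin, at 69.0 and 72.6 TPM, Dusp11, which acts on RNA 5′ triphosphates, at 41.4 and 46.4 TPM, and Ssh1 at 9.25 and 9.77 TPM. Dusp15, Dusp21 and Dusp26 had 0 counts in both libraries, and the largest level that 3 counts would allow among them was 0.328 TPM (Dusp21, replicate 2).

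Genes outside the family also take part in feedback on ERK, and 8 of 9 genes of a list of Sprouty, Spred and other ERK pathway regulators were matched. Of these, 6 reached 1 TPM in both libraries and 1 of the 6 was more than 2-fold higher in replicate 1, against 1.65% of all 11656 genes. That gene was Ier3, an immediate early gene whose product is an ERK substrate known to prolong ERK activity, which had 98.3 TPM in replicate 1 and 26.8 TPM in replicate 2, a 3.34-fold ratio on TMM-scaled counts (95% counting interval 2.99 to 3.76). Rasa1, a GTPase activator of Ras, had 48.8 and 48.1 TPM, and Spred1, which inhibits Raf activation, had 13.8 and 9.84 TPM. Spry4, a Sprouty inhibitor, had 0 counts in each library, a result that 3 counts would bound at 0.0295 TPM in replicate 1 and 0.0457 TPM in replicate 2.

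Some members overlap other annotated genes, and since strand handling of the counting is not stated, the reads of such pairs may not be told apart. The annotated span of Dusp1 overlaps Ergic1 on the opposite strand, which had 13.9 and 15.3 TPM in replicates 1 and 2. The Dusp1 transcripts with RNA in the gene tables' quantification all lie at chr17:26505590-26508519. The rest of the span, up to 26562128, belongs to Dusp1-205 and Dusp1-201, both at 0 TPM there. Which part of the span Ergic1 overlaps was not examined. Dusp3 overlaps the antisense gene Gm20659, at 8.70 and 3.05 TPM (74 and 17 counts), and Cfap97d1, listed at 0 in the gene tables and at 10.5 and 4.88 TPM in the second quantification. The other overlapping genes with any count were low: AC122252.1 at Dusp1 (1 and 0 counts), AC137853.2 at Dusp5 (9 and 0 counts), 1700056E22Rik at Dusp10 (0.64 and 0.20 TPM) and Gm36328 at Dusp16 (0.86 and 0.95 TPM). Dusp2, Dusp4, Dusp6 and Dusp7 overlap no annotated gene.

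The protein-coding genes nearest to the top gene of each class were found by Euclidean distance on log2(TPM + 1) over the 2 libraries. Nearest to Dusp1 were Rps27a (79.3 and 38.6 TPM, distance 0.0599) and Cd74 (78.4 and 39.4 TPM, 0.0883). Nearest to Dusp7 were Eif2b2 (distance 0.00792) and Psmb1 (0.00898), and nearest to Dusp16 were Dnal4 (0.0107) and Zfp287 (0.0147). A likeness over 2 values describes level and nothing more.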

How the data were processed

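Sequencing of total RNA from 2 libraries of 1 group was analysed, with replicate numbers from the labels. Per the file headers and the accompanying deposited text files, the authors' gene and transcript tables hold expected counts and TPM from alignments to mm10 with GENCODE annotation M21. The second transcript tables hold estimated counts and TPM from the same annotation. Programs and strand handling are not given in the sources used here, though the header names match what RSEM (first) and kallisto (second) write. The bounds of the authors' deposited intervals (a non-negative signal) were read but set no printed value. Other deposited columns (identifiers, lengths) were used to join and scale. TPM was deposited scaled over all entries. Entries that name no gene held 1.18% and 0.405% of counts and were left out.

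Expected counts were rounded, then scaled by TMM (edgeR 4.0.16, R 4.3.3) or, as an alternative, DESeq2 1.42.0 size factors. Ratios used a pseudocount of 1 and genes with a mean of at least 50 counts. Detection required 1 TPM in both libraries. Exact 95% Poisson intervals of TPM, exact binomial intervals of ratios and the limit of 3 counts for a count of 0 reflect counting error alone, because no molecular identifiers separated PCR copies. With 1 group no p-value was computed. The scaling step was tested on simulated data. Python 3.11.15, numpy 2.4.6, pandas 2.3.3, scipy 1.17.1 and matplotlib 3.10.9 were used.

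Genes, classes and lists were chosen with earlier results of these data known, although the rule for the 9 members uses no measured value. Named genes followed a rule: all 9 members; Dusp8 and Dusp9; the 4 highest and 2 lowest MAP kinases (a gene this allows is not reported here); the 3 highest and the lowest of the other phosphatases and of the ERK feedback genes; overlapping genes; the 2 nearest genes of the top gene of each class; and each transcript with at least 20% of a gene's TPM in a library. Spry3 was not matched to a single gene, and 3 phosphatases tied as lowest. Symbols were joined by gene identifier. The CArG box, the pentamer counts in 3′ UTRs, the retained share over all genes, Dusp1-202, Dusp1-206, Dusp7-202, S100a8 and the printed sequences were chosen after values were seen. Negative positions in promoters count bases back from the annotated start, beginning with the base just before it. Protein sequences were not used here. The alternatives were other thresholds, pseudocounts, filters, scalings, posterior mean TPM, the second quantification, coding transcripts alone, each library alone and, added after seeing the data, means per gene.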

Additional observations from a re-analysis of the deposited data

How the results depend on the processing

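The number of members detected in both libraries was 8 to 9 under the alternatives tried, except at 5 TPM, where it was 4. The log2 ratio of nuclear inducible to cytoplasmic ERK phosphatases was 2.32 as reported, 2.18 with posterior mean TPM and 2.03 to 2.62 with 1 library left out. It was 1.02 in the second quantification, 0.69 on coding transcripts, 1.49 on expected counts and 0.55 without Dusp1. These set a sum of 4 genes (3 without Dusp1) against a sum of 2. With means per gene, added after seeing the data, the log2 ratio was 1.32, with 0.0163 in the second quantification, and it turned to -0.31 on coding transcripts and -0.0329 without Dusp1. The count of members more than 2-fold higher in replicate 1 was 4 with DESeq2 size factors, a pseudocount of 10 or no filter. It was 2 on centred TPM, and 5 in the second quantification, where Dusp4 joined at a log2 ratio of 1.11.

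Differences between libraries, reported on log2(TPM + 1), kept their sign in all 8 alternatives for Dusp1 (0.84 to 1.13), Dusp2 (1.57 to 1.97), Dusp4 (0.70 to 0.95), Dusp5 (0.84 to 1.33), Dusp6 (0.79 to 1.36), Dusp7 (0.18 to 0.50) and Dusp16 (-0.39 to -0.07). The sign held in 6 of 8 for Dusp10 (-0.14 to 0.14) and 5 of 8 for Dusp3 (-0.03 to 0.18). The 8 include ratios of TMM-scaled and DESeq2-scaled counts. Leaving out the centring and leaving out the filter on low values gave identical values, so they are not separate checks. In the second quantification the mean level was 29.7 TPM for Dusp1, 11.9 for Dusp2, 2.01 for Dusp4, 1.43 for Dusp5 and 17.7 for Dusp7. The share of TPM on coding transcripts moved by more than 1 SD for Dusp2 on expected counts (70.3%) and, in the second quantification, for Dusp6 (57%), Dusp7 (31.4%) and Dusp16 (55.5%). The causes were not tested.

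No paired analysis was possible because both libraries belong to 1 group. Depth limits Dusp10, with 29 and 19 counts, and the division of reads among transcripts that share exons. Levels cannot be set against unstimulated cells or other fractions here.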

Other observations

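AU-rich stretches in the 3′ UTR, built from overlapping AUUUA pentamers, are known to mark short-lived messages of early response genes. Dusp1-202 held 4 such pentamers in its 690-base 3′ UTR (5.80 per kb), more per kb than 95.2% of 9984 detected protein-coding genes, and Dusp2-201 held 4 in 581 bases (6.88 per kb), more than 96.9%. A window of each is shown from the annotated transcript in DNA letters, with the pentamers in capitals, because they are the densest stretches of the members with retained introns.
Dusp1-202, 3′ UTR window: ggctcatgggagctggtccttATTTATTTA
Dusp2-201, 3′ UTR window: ttgcagaaattaATTTAattaattaATTTA

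For Dusp16 the count was made on the transcript Dusp16-204, which held 9 pentamers in 2226 bases (4.04 per kb). That transcript had 37.9% and 32.9% of the Dusp16 TPM in replicates 1 and 2. The other coding transcripts of Dusp16 end elsewhere in the gene, and their 3′ UTRs were not counted. Dusp10 held 3 pentamers in 1113 bases (2.70 per kb). Dusp4 had 1.80 per kb, Dusp3 1.11, Dusp5 0.902 and Dusp6 0.841, and Dusp7 had 0 in 1778 bases. The median over the 9984 genes was 1.30 per kb. The nuclear inducible class was thus divided, with Dusp1 and Dusp2 above Dusp4 and Dusp5. These counts describe letters of the annotated UTR, and message stability was not measured in these libraries.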
